A study of Mus musculus with 12 samples.

Results

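The 39 genes described here encode the T cell receptor signalling machinery: receptor chains, kinases, adaptors, downstream effectors, surface molecules and inhibitors. They were chosen by name from a list of that pathway, all 39 were found among the 47643 genes of the deposited table, and all 39 passed the filter on low values. RNA had been measured by bulk sequencing in 12 libraries, 3 per group, from cells labelled as splenic naive CD4+ T cells of C57BL/6 mice. All groups were cultured over 3 days with plate-bound anti-CD3 and anti-CD28 (2 μg/ml of each), so every group, the controls included, received the stimulus of this pathway. Of the wild-type (WT) groups, Th0 had no cytokine, a second had IL-6+TGF-β and the other TNF+TGF-β. Cells of Tnfr2-/- mice, which lack TNF receptor 2 (gene Tnfrsf1b), received TNF+TGF-β. The dose of TGF-β was 2 ng/ml, and that of IL-6 or TNF 20 ng/ml. The labels give no age, and they do not say whether the samples of a group came from separate mice or cultures, so the p-values measure only the spread between these samples. No group with TGF-β alone and no Tnfr2-/- group without cytokine was analysed here, so the effect of TNF or IL-6 and that of TGF-β cannot be told apart.

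When peptide on an MHC molecule binds the T cell receptor, the kinase Lck phosphorylates the CD3 and zeta chains, Zap70 docks there and phosphorylates the scaffolds Lat and Lcp2 (SLP-76), and these gather Plcg1, Vav1 and other effectors. Diacylglycerol made by Plcg1 activates Ras through Rasgrp1 and, through Prkcq, the Bcl10 and Malt1 complex that leads to NF-κB, while calcium leads to NFAT. Cd28 adds costimulation, and phosphatases, ubiquitin ligases, Src-like adaptors and diacylglycerol kinases turn the signal down, so that activated T cells keep the pathway within limits.

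The promoter windows of 4 members are shown first, because these members differed at least 2-fold between the TNF+TGF-β and IL-6+TGF-β groups, passed the test and kept the call without each single library. Each window runs from 250 bases before to 50 bases after a RefSeq start site (GRCm38.p6, matched by symbol, as found for 30 of the 39 members), and is written 5′ to 3′ on the strand of the gene. Capitals mark matches, on either strand, to one of 5 motifs searched: ETS (AGGAAG), RUNX (TGTGGT), STAT (TTCNNNGAA), SMAD (CAGACA) and the kappaB motif. No 2 matches overlapped in these windows. A match is a description of letters, not a binding site. Malt1 met the same conditions and is named only.
Txk, chr5:72752728-72753027, minus strand: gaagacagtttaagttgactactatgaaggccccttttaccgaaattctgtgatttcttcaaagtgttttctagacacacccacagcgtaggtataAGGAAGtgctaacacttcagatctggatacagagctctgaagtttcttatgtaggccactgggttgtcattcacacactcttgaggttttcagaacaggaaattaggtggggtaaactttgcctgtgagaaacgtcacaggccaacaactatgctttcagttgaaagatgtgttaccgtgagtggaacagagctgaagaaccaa
Fyb, chr15:6579597-6579896, plus strand: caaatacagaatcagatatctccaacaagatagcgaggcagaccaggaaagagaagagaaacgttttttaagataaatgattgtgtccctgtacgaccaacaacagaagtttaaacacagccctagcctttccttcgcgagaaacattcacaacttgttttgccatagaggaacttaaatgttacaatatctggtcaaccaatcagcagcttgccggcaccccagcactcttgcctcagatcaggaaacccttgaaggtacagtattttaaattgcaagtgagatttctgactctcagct
Rasgrp1, chr2:117342828-117343127, minus strand: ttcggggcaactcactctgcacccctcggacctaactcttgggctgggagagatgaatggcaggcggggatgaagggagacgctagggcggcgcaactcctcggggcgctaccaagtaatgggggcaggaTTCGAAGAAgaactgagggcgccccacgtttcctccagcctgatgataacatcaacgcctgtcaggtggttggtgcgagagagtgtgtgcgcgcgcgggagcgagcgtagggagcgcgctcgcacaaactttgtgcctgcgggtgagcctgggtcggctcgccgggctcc
Ubash3a, chr17:31207816-31208115, plus strand: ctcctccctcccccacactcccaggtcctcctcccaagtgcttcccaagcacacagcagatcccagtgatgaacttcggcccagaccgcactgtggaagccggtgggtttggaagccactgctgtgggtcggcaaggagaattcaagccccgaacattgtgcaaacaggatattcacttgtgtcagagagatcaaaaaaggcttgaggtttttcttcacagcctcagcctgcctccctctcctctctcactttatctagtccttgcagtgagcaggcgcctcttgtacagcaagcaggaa
The Txk window, of the member that was lower with TNF, holds 1 ETS match, as do 35.4% of 32851 RefSeq promoter windows of the same length. The Rasgrp1 window holds 1 STAT match, which 8.3% of the windows do. The Fyb and Ubash3a windows hold none of the 5 motifs. RUNX, SMAD and kappaB matches occur in 16.8%, 21% and 8.46% of all windows and in none of these 4. The Fyb window lies inside the gene's GENCODE M21 span, chr15:6522853-6663313, not at its outer end.

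Values are FPKM (fragments counted per kilobase of transcript, relative to library depth), so levels of different genes can be compared per length. Depth was estimated at 16200000 to 24000000 fragments per library, and at that depth 3 fragments on a 1 kilobase transcript correspond to 0.125 to 0.185 FPKM, which covers counting error only. Libraries of the same group had rank correlations of 0.950 to 0.982, and libraries of different groups 0.865 to 0.947; these run across genes, so they are descriptions without a test. Tnfrsf1b, the targeted gene, stood at 17.4, 22.6 and 18.4 FPKM in Th0, 36.7, 77.4 and 64.8 in IL-6+TGF-β, 74.4, 108 and 70.8 in TNF+TGF-β and 4.87, 3.71 and 3.19 in Tnfr2-/-. Cd8a and Cd8b1, the chains of the coreceptor of cytotoxic T cells, were both above Cd4 in 11 of 12 libraries, which goes against the label of CD4 T cells. Cd4 lay at 18.9 to 62.4 FPKM in Th0, 4.07 to 25.2 in IL-6+TGF-β, 42.3 to 79.6 in TNF+TGF-β and 10.3 to 17.6 in Tnfr2-/-. Cd8a and Cd8b1 summed to 115.3 to 180.1 FPKM in Th0, 256.2 to 343.1 in IL-6+TGF-β and 307.4 to 357.9 in TNF+TGF-β. Both WT cytokine groups lay above Th0 in this sum, and its part in the rises of members against Th0 was not tested. The summed level of 10 B cell markers was 909.6 to 1380.0 FPKM in Th0, 448.6 to 1003 in IL-6+TGF-β, 296.6 to 390.4 in TNF+TGF-β and 2206 to 4761 in Tnfr2-/-.

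**Figure D1:**
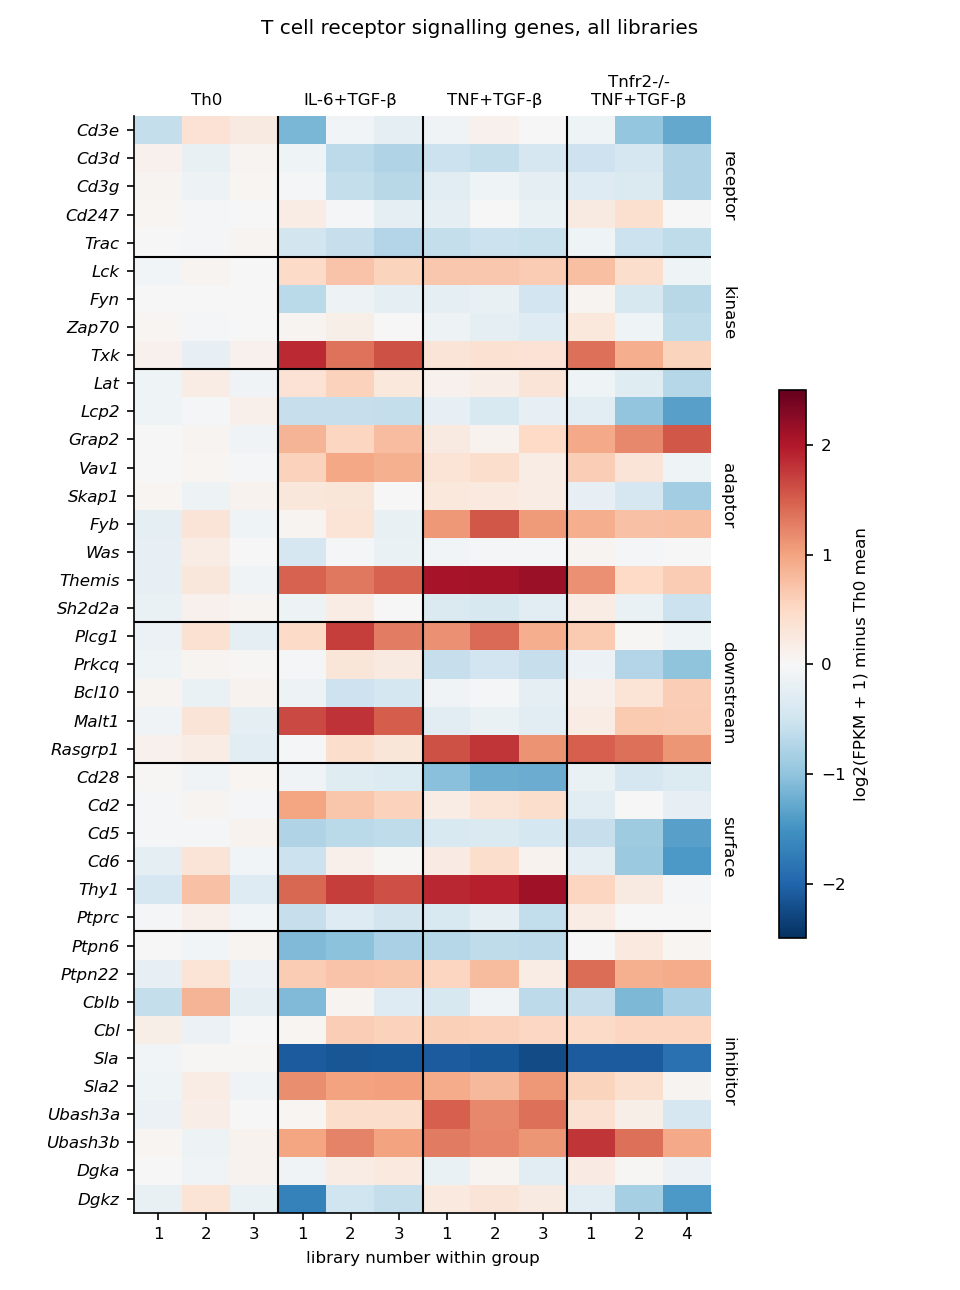
Log2(FPKM + 1) of each member (one line each, ordered by role) in each of the 12 libraries (columns, by group), minus the mean of the 3 Th0 libraries. Sla is low in all 9 cytokine-treated libraries, Themis and Thy1 are high in the 6 WT cytokine libraries, and the means of Malt1 and Txk are highest in IL-6+TGF-β.

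Mean levels of the members ran from 3.31 FPKM (Themis) to 1292 FPKM (Trac) in Th0, and in every group 18 to 21 of the 39 lay at 100 FPKM or more. The median coefficient of variation of the members was 9.49% in Th0, 11.9% in IL-6+TGF-β, 7.3% in TNF+TGF-β and 21% in Tnfr2-/-, against 14%, 21%, 13% and 19.8% over all tested genes. The least even members within a group were Cblb in Th0 (59.4%) and Cd3e in Tnfr2-/- (44.9%). Library 2 of Th0 stood over 1.5 times above both other Th0 libraries for Thy1 and Cblb, 2 of the 39 members, as it did for 6.61% of all tested genes. Library 1 of IL-6+TGF-β lay below 0.5 times both others for 1 member, Dgkz, and for 5.54% of all tested genes.

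Differences below are in log2(FPKM + 1) with their standard errors, and a gene is called higher or lower when limma's adjusted p over all 13082 tested genes is under 0.05. Folds are ratios of FPKM + 1, so for members at low levels they come out smaller than ratios of FPKM. "TNF" and "IL-6" below stand for TNF+TGF-β and IL-6+TGF-β in WT cells. With TNF+TGF-β against Th0, 10 members rose and 7 fell, or 43.6% of the list, where 31.7% of all tested genes were called (18.7% higher, 13% lower). With IL-6+TGF-β against Th0, 12 rose and 6 fell (46.2%), against 23.2% of all genes (14.1% higher, 9.15% lower). Between TNF+TGF-β and IL-6+TGF-β, 5 members were higher and 4 lower with TNF (23.1%), against 12.8% of all genes (7.31% higher, 5.5% lower). In Tnfr2-/- against WT under TNF+TGF-β, 8 were higher and 12 lower (51.3%), against 37.4% of all genes (19.9% higher, 17.5% lower). The direction of calls over all genes depended on the scaling: of those called with TNF against Th0, 58.9% were higher, but 72.5% after rescaling to TPM, 48.2% with median-ratio scaling and 81% when scaled to 5 CD3 and T cell receptor genes. With IL-6 the last scaling gave 83.4% in place of 60.6%, and in Tnfr2-/- TPM gave 42.5% in place of 53.2%. Groups did not overlap at all for 69.2% of the members with TNF against Th0 (55.1% of all tested genes), 53.8% with IL-6 against Th0 (39.2%, of which 22.4% higher and 16.8% lower), 46.2% between the cytokine pairs (32.1%) and 64.1% in Tnfr2-/- (50.8%). Median differences of the list were 0.01, 0.08, 0.05 and -0.05, near those of all genes at 0.07, 0.04, 0 and 0. Members were called in both directions in each comparison. The first pair of comparisons shares the Th0 libraries, and the WT TNF+TGF-β libraries enter 3 of the 4, so their values are set side by side and not counted as separate evidence.

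**Figure D2:**
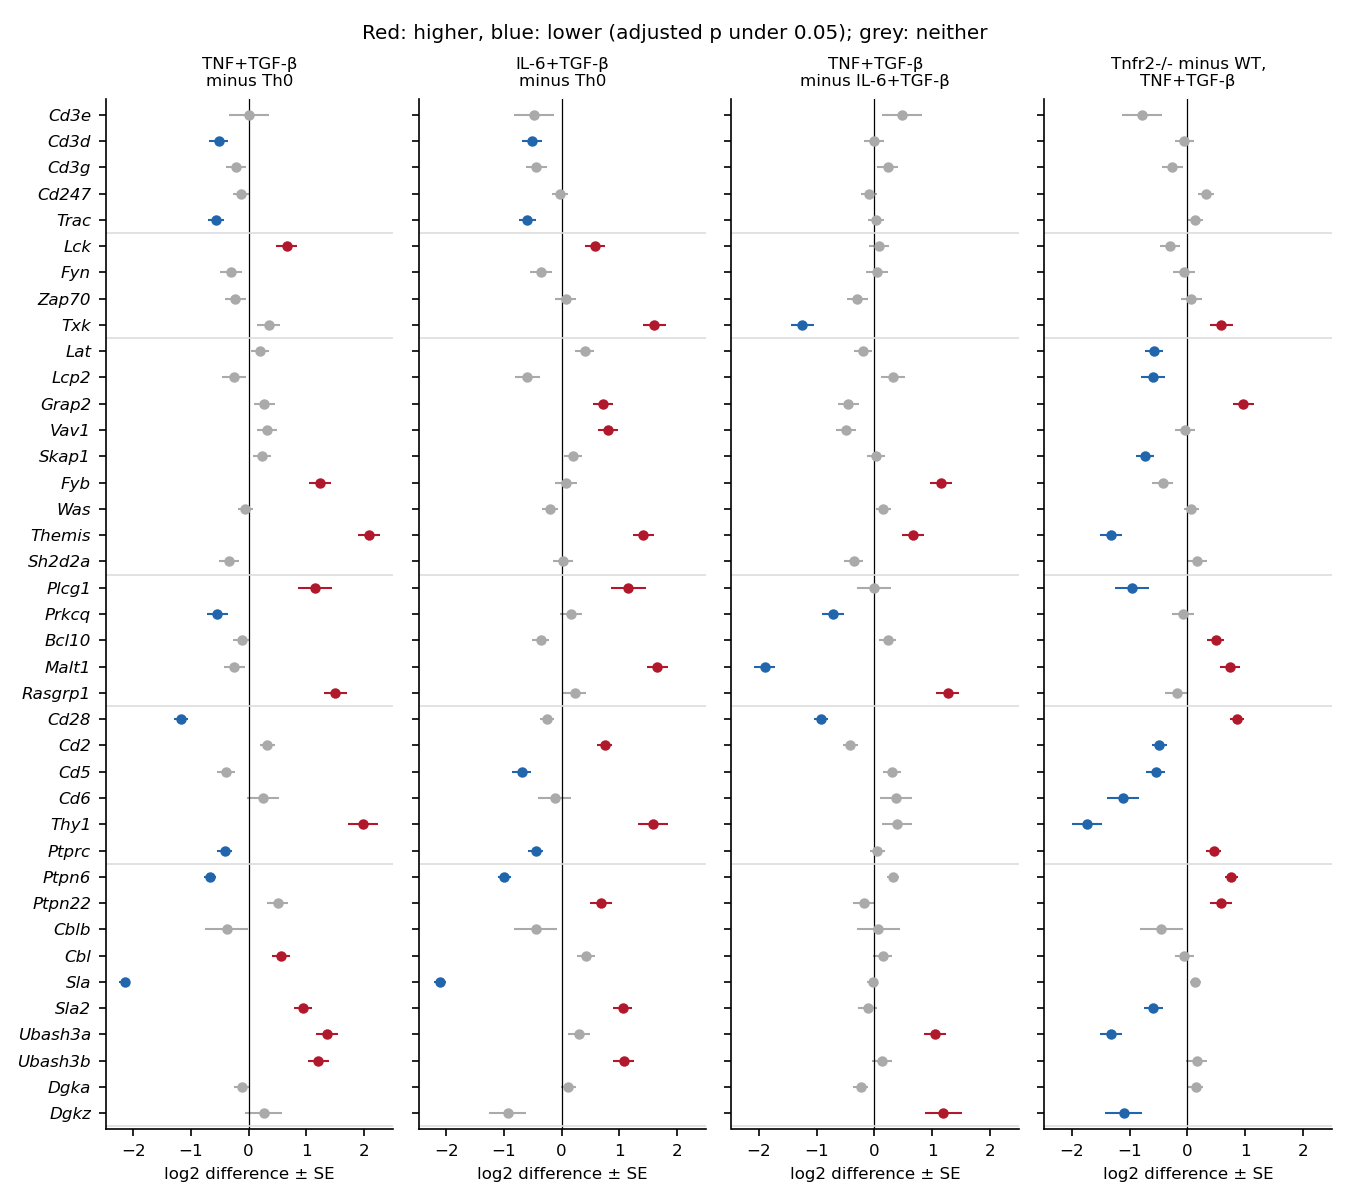
Log2 difference and standard error of every member in the 4 comparisons (panels), with calls higher in red, lower in blue and no call in grey. Each panel holds both red points right of 0 and blue points left of it, with Sla the farthest to the left against Th0 and Malt1 the farthest to the left between TNF and IL-6.

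Receptor chains were abundant in all groups, and none of the 5 was called higher in any comparison. Trac, the constant region of the alpha chain, fell with both cytokine pairs. It stood at 1283, 1242 and 1350.4 FPKM in Th0, 938, 870.2 and 776 with IL-6 and 849, 893 and 877 with TNF. Every cytokine-treated WT library lay below every Th0 library (TNF log2 difference -0.56 ± 0.14, adjusted p = 0.0105; IL-6 -0.59 ± 0.14, adjusted p = 0.0104). Fewer cells of a type and less RNA per cell cannot be told apart in bulk samples, and all 10 B cell markers were called lower with TNF than in Th0 and 3 of 10 with IL-6. Whether the change in these markers bears on the level of Trac was not tested. Scaled to the CD3 and beta chain genes, Trac was -0.27 from Th0 in both groups and no longer called (adjusted p = 0.135 with TNF and 0.150 with IL-6). This scaling was added after seeing the data and uses chains of the same receptor as Trac. It moved the median of all genes from 0.07 to 0.31 with TNF and from 0.04 to 0.3 with IL-6. Smaller falls of Trac, and of Cd5 and Ptpn6 below, are therefore partly built into it. Cd3d, a CD3 chain, was called lower at -0.52 with TNF (adjusted p = 0.0335) and -0.51 with IL-6 (adjusted p = 0.0462), where library 1 of IL-6+TGF-β overlapped Th0. The TNF call was lost without library 1 or 3 of Th0 or library 1 or 2 of TNF+TGF-β (adjusted p 0.0909 to 0.113). The IL-6 call was lost without library 1 or 3 of Th0 or library 2 or 3 of IL-6+TGF-β (0.138 to 0.182).

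Cd3e and Cd3g, which pair with each other in the receptor, passed in no comparison with all libraries in. Cd3e stood at 323, 628 and 569 FPKM in Th0 and 219.6, 464 and 418 with IL-6, and library 1 was the lowest of its group in both. Without library 1 of IL-6+TGF-β, Cd3g passed against Th0 at -0.65 (adjusted p = 0.00537, from 0.0941 with it). Cd247, the zeta chain, passed in no comparison, and its values overlapped between all WT groups (TNF log2 difference -0.13 ± 0.14, adjusted p = 0.512). In Tnfr2-/- Cd247 was 71.17 to 93.66 FPKM, above the 61.04 to 70.94 of WT with TNF+TGF-β, and not called (log2 difference 0.33, adjusted p = 0.0765). It shares 3007 exonic bases with Pou2f1 on the opposite strand, a gene at 9.19 to 23.9 FPKM, and reads of the 2 strands cannot be told apart with this library kit. The summed level of the 5 chains was 2796 to 3083 FPKM in Th0, 1890 to 2247 with IL-6, 2169 to 2348 with TNF and 1729 to 2529 in Tnfr2-/-.

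Among the kinases, Txk and Lck were called and Fyn and Zap70 did not pass in any comparison in the main fit. Of the 14 alternatives, 1 called Fyn lower with TNF than in Th0, the fit of only the 2 groups compared (adjusted p = 0.0491). Txk, a Tec family kinase acting on Plcg1, stood at 12.96, 10.2 and 12.8 FPKM in Th0 and 45.98, 32.3 and 37.98 with IL-6. With TNF+TGF-β it was 15.1, 15.9 and 15.6. The IL-6 libraries were above all others of WT with no overlap, 3.05-fold over Th0 (log2 difference 1.61 ± 0.20, adjusted p = 0.000103). Against TNF+TGF-β the ratio was 2.38-fold (TNF minus IL-6 -1.25 ± 0.20, adjusted p = 0.00112). Both calls held without each library and under all 14 alternatives. With TNF+TGF-β Txk differed from Th0 by 0.35 ± 0.20 (adjusted p = 0.199).

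Lck, which starts the cascade, was 459, 509.7 and 483 FPKM in Th0, 674, 791 and 711 with IL-6 and 773, 772 and 752 with TNF. Both cytokine groups lay above Th0 with no overlap (TNF log2 difference 0.66 ± 0.18, adjusted p = 0.0143; IL-6 0.58 ± 0.18, adjusted p = 0.0328). Without library 1 of Th0 the TNF call was lost at an adjusted p of 0.053. The IL-6 call was lost without any 1 of the 3 Th0 libraries or library 2 or 3 of IL-6+TGF-β (0.0585 to 0.109). Fyn, the other Src family kinase of the receptor, had lower values in both cytokine groups than the 166, 167 and 168 FPKM of Th0 and was not called (TNF log2 difference -0.30 ± 0.19, adjusted p = 0.257; IL-6 -0.35 ± 0.19, adjusted p = 0.223). The ratio of Lck to Fyn was 2.77 to 3.05 in Th0 and 4.38 to 6.42 in the 9 cytokine-treated libraries, with no overlap. Zap70 stayed between 178 and 219 FPKM in group means and passed in no comparison.

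Of the 9 adaptors, 2 rose with TNF+TGF-β, 3 rose with IL-6+TGF-β and none fell against Th0. Over all tested genes, 18.7% were called higher and 13% lower with TNF, and 14.1% and 9.15% with IL-6. Themis (chr10:28668360-28883818, plus strand, GRCm38 with GENCODE M21, as for the other genes below), an adaptor best known from thymocyte selection, was 2.70, 4.19 and 3.04 FPKM in Th0, 10.8, 9.57 and 10.9 with IL-6 and 16.7, 17.00 and 17.9 with TNF. The 3 groups did not overlap, and Themis was 4.27-fold above Th0 with TNF (log2 difference 2.09 ± 0.19, adjusted p = 6.79e-06) and 2.68-fold with IL-6 (1.42 ± 0.19, adjusted p = 0.000153). The difference between the cytokine pairs, 0.67 ± 0.19 (adjusted p = 0.0333), was lost without any 1 of the 6 libraries (0.0621 to 0.0973). In Tnfr2-/- Themis was 8.38, 5.04 and 5.63 FPKM, 2.52-fold below WT and without overlap (log2 difference -1.33 ± 0.19, adjusted p = 0.000213).

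Fyb (ADAP), which links the receptor to integrin adhesion, rose with TNF+TGF-β. It was 35.1, 52.4 and 38.5 FPKM in Th0, 43.5, 52.8 and 36.4 with IL-6 and 88.4, 123 and 87.5 with TNF. The TNF libraries stood above all Th0 and IL-6 libraries, while those 2 groups overlapped (TNF minus Th0 1.23 ± 0.19, adjusted p = 0.000422; TNF minus IL-6 1.15 ± 0.19, adjusted p = 0.00121; IL-6 minus Th0 0.08 ± 0.19, adjusted p = 0.814). In Tnfr2-/- Fyb was 78.7, 69.2 and 70.8 FPKM, below the 3 WT libraries with TNF+TGF-β but not called (-0.43 ± 0.19, adjusted p = 0.0907). Fyb shares 231 exonic bases with Gm7666 on the same strand, a gene listed at 6.26 to 18.9 FPKM.

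Grap2 (GADS), which couples Lat to Lcp2, and Vav1, an exchange factor for Rac, rose with IL-6+TGF-β. Grap2 was 6.86, 7.18 and 6.28 FPKM in Th0 and 12.9, 10.3 and 12.2 with IL-6 (log2 difference 0.72 ± 0.18, adjusted p = 0.0111). Vav1 was 89.9, 92.7 and 86.6 FPKM in Th0 and 135, 176 and 167 with IL-6 (log2 difference 0.81 ± 0.17, adjusted p = 0.00462). Neither group overlapped its controls, and both calls held without each library. With TNF+TGF-β they stood 0.27 and 0.32 from Th0 and were not called. Whether TNF and IL-6 differed was tested directly and was not called for either gene (Grap2 -0.45 ± 0.18, adjusted p = 0.128; Vav1 -0.49 ± 0.17, adjusted p = 0.0874). Lat, Lcp2, Skap1, Was and Sh2d2a passed in none of the 3 WT comparisons in the main fit. Against Th0, some of the 14 alternatives called Lcp2 lower with IL-6 (4), Sh2d2a lower with TNF (2) and Lat higher with IL-6 (2) and TNF (1). Skap1 was called higher with both only when scaled to the CD3 and beta chain genes, and Was under no alternative. Lcp2 was 140.2, 147 and 166 FPKM in Th0 and 100.4, 101 and 98.9 with IL-6, without overlap (-0.59 ± 0.21, adjusted p = 0.0649).

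Of the 5 downstream effectors, 2 rose and 1 fell with TNF against Th0, and 2 rose with IL-6. Among the 13082 genes, rises made up 18.7% and falls 13% in the TNF comparison. For IL-6 these shares were 14.1% and 9.15%. The counts of effectors include Plcg1 and Prkcq, whose calls depended on single libraries, as given below. Malt1, the protease and scaffold of the NF-κB branch, rose with IL-6+TGF-β and Rasgrp1, the Ras activator, rose with TNF+TGF-β. Malt1 stood at 7.64, 10.4 and 6.80 FPKM in Th0, 27.9, 31.00 and 25.04 with IL-6 and 6.49, 7.21 and 6.51 with TNF. The IL-6 libraries lay far above both other groups, 3.15-fold over Th0 (log2 difference 1.66 ± 0.18, adjusted p = 3.48e-05) and 3.74-fold over TNF (TNF minus IL-6 -1.90 ± 0.18, adjusted p = 1.85e-05). Bcl10, its partner in the complex, was not called in WT and stood at group means of 57.5, 44.9 and 52.7 FPKM in the same order.

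Rasgrp1 was 19.4, 20.8 and 14.5 FPKM in Th0, 17.3, 24.7 and 22.5 with IL-6 and 56.4, 64.5 and 40.6 with TNF. The TNF libraries were above all others of WT, 2.83-fold over Th0 (log2 difference 1.50 ± 0.20, adjusted p = 0.000173) and 2.42-fold over IL-6 (1.27 ± 0.20, adjusted p = 0.00103), while Th0 and IL-6 overlapped. These calls of Malt1 and Rasgrp1 held without each library and under all 14 alternatives. Plcg1, the phospholipase at the branch point, was 17.8, 26.4 and 16.8 FPKM in Th0, 28.04, 68.3 and 49.7 with IL-6 and 44.9, 54.5 and 38.3 with TNF. Both rises passed without overlap (TNF 1.15 ± 0.30, adjusted p = 0.0136; IL-6 1.16 ± 0.30, adjusted p = 0.0161). The TNF call of Plcg1 was lost without library 1 or 3 of Th0 or library 2 of TNF+TGF-β (0.05 to 0.0585). Its IL-6 call was lost without library 1 or 3 of Th0 or library 2 or 3 of IL-6+TGF-β (0.0559 to 0.0672). Prkcq, the protein kinase C theta of the pathway, was called lower with TNF against Th0 (-0.54 ± 0.19, adjusted p = 0.0434) and against IL-6 (-0.71 ± 0.19, adjusted p = 0.0250). The first call was lost without any 1 of the 6 libraries (0.0698 to 0.115). The second was lost without library 2 or 3 of IL-6+TGF-β or any TNF+TGF-β library (0.0588 to 0.0826).

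**Figure D3:**
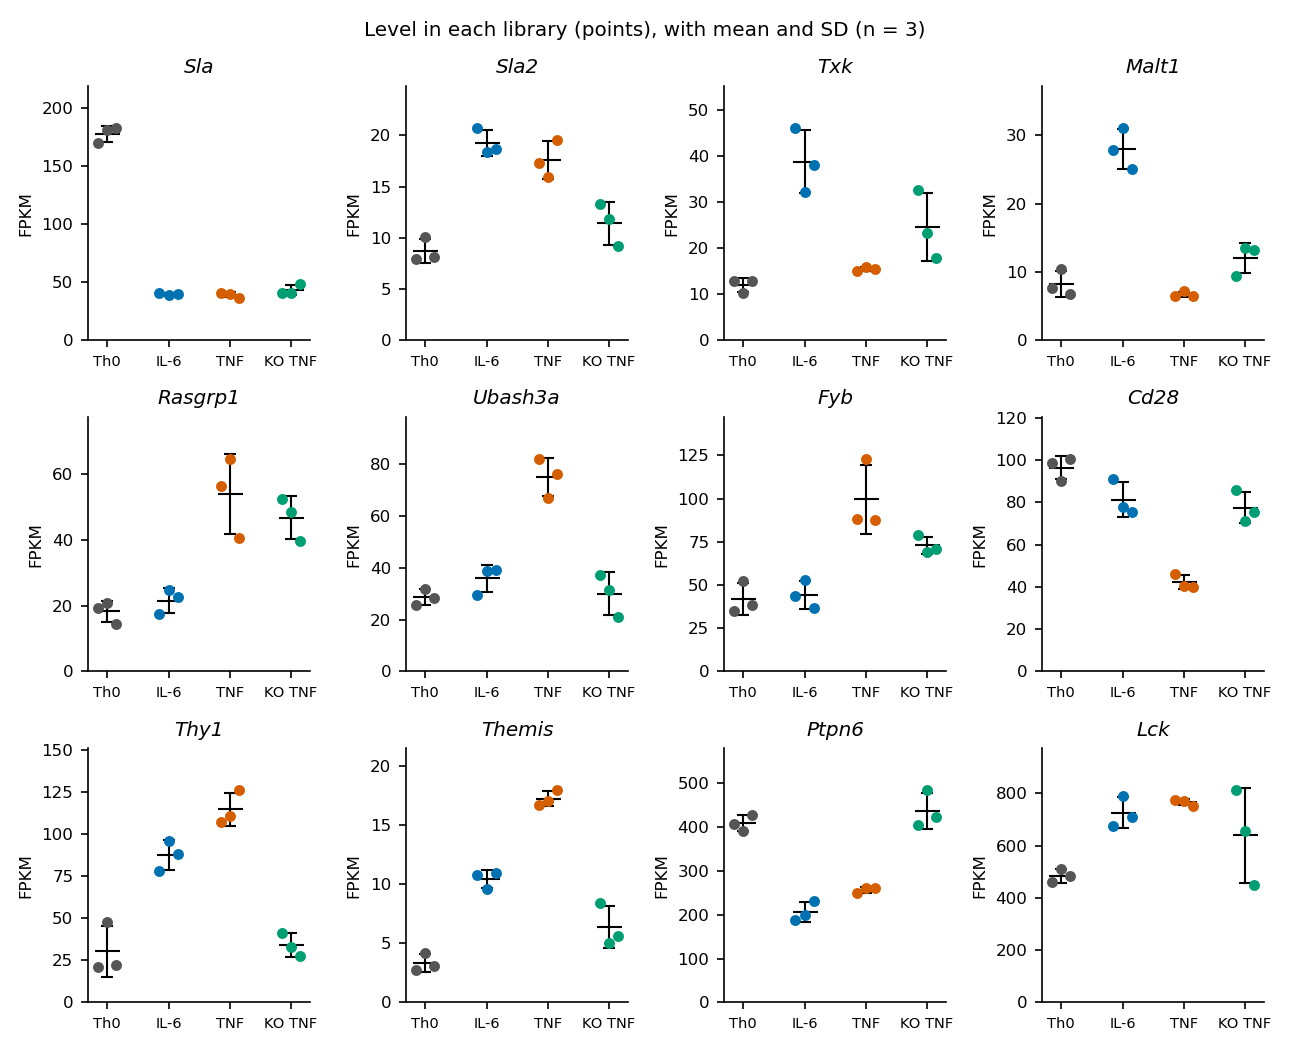
FPKM of 12 members in each library (points), with the group mean and SD (bars, n = 3), in Th0, IL-6+TGF-β (IL-6), TNF+TGF-β (TNF) and Tnfr2-/- with TNF+TGF-β (KO TNF). The means of Malt1 and Txk are highest with IL-6, the means of Rasgrp1, Fyb and Ubash3a are highest with TNF in WT, and Cd28 is lowest with TNF in WT.

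At the surface, Thy1 and Cd2 rose and Cd28, Cd5 and Ptprc fell in 1 or both cytokine groups. Cd28 (chr1:60716800-60773359, plus strand), the costimulatory receptor engaged by the plate antibody, was 98.6, 90.3 and 100.3 FPKM in Th0, 90.9, 77.7 and 75.3 with IL-6 and 46.1, 40.5 and 40.00 with TNF. The TNF libraries lay below all others of WT, 2.26-fold under Th0 (log2 difference -1.17 ± 0.12, adjusted p = 1.69e-05) and 1.90-fold under IL-6 (-0.93 ± 0.12, adjusted p = 0.000203). IL-6 and Th0 overlapped and were not called (-0.25 ± 0.12, adjusted p = 0.161). Without library 1 of IL-6+TGF-β that difference passed at -0.33 (adjusted p = 0.0497). In Tnfr2-/- with TNF+TGF-β, Cd28 was 85.6, 71.3 and 75.4 FPKM, above all WT libraries of that treatment (0.86 ± 0.12, adjusted p = 0.000179).

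Thy1 (chr9:44043384-44048579, plus strand), a glycolipid-anchored T cell marker, was 20.97, 47.6 and 22.3 FPKM in Th0, 78.2, 95.9 and 88.3 with IL-6 and 107, 111 and 126 with TNF. All 6 cytokine libraries of WT were above Th0, 3.95-fold with TNF (log2 difference 1.98 ± 0.26, adjusted p = 0.000144) and 3.02-fold with IL-6 (1.59 ± 0.26, adjusted p = 0.000786). Library 2 of Th0 was the highest of its group, and both calls held without it. Tnfr2-/- libraries stood at 41.5, 33.1 and 27.3 FPKM, in the range of Th0 and 3.35-fold below WT (log2 difference -1.74 ± 0.26, adjusted p = 0.000333). Cd2, an adhesion receptor, rose with IL-6 from 169.7 to 287 FPKM (0.75 ± 0.13, adjusted p = 0.00119) and stood at 213 with TNF (0.32 ± 0.13, adjusted p = 0.0746). Between the cytokine pairs Cd2 was not called (-0.42 ± 0.13, adjusted p = 0.0520), but it was called on TPM (-0.35, adjusted p = 0.0376), with median-ratio scaling (-0.45) and without library 3 of IL-6+TGF-β (-0.51, adjusted p = 0.0419). The difference of Cd2 between TNF and Th0 was likewise called under 3 of the 14 alternatives.

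Cd5, which dampens receptor signals, fell with IL-6 from 345 to 213 FPKM (-0.69 ± 0.16, adjusted p = 0.00757) and was not called with TNF (-0.39 ± 0.16, adjusted p = 0.0788). Scaled to the CD3 and beta chain genes, the IL-6 call of Cd5 was lost (-0.38, adjusted p = 0.123). Its TNF difference was called under 4 of the 14 alternatives (-0.39 to -0.50), and the cytokine pairs were not called different (0.30 ± 0.16, adjusted p = 0.271). Ptprc (CD45), the phosphatase that keeps Lck active, was called lower with TNF (-0.41 ± 0.13, adjusted p = 0.0299) and IL-6 (-0.45 ± 0.13, adjusted p = 0.0225). The TNF call of Ptprc was lost without any 1 of the Th0 libraries or library 1 or 3 of TNF+TGF-β (0.0587 to 0.114). The IL-6 call was lost without library 1 or 2 of Th0 or library 3 of IL-6+TGF-β (0.0518 to 0.0837). Cd6, a relative of Cd5, overlapped between all WT groups.

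The 10 inhibitors held the largest fall of the list and several rises. Sla (chr15:66780819-66831829, minus strand), a Src-like adaptor that promotes removal of receptor chains, was 169.7, 180.5 and 182 FPKM in Th0. It was 41.1, 39.4 and 40.2 with IL-6 and 40.9, 40.2 and 36.9 with TNF. The 6 cytokine libraries lay within a narrow band far below Th0, 4.43-fold lower with TNF (log2 difference -2.15 ± 0.10, adjusted p = 5.27e-08) and 4.33-fold with IL-6 (-2.11 ± 0.10, adjusted p = 5.71e-08). Sla2 (chr2:156872457-156887192, minus strand), its relative, moved the other way: 7.93, 10.1 and 8.16 FPKM in Th0, 20.7, 18.4 and 18.6 with IL-6 and 17.3, 15.9 and 19.6 with TNF. No cytokine library overlapped Th0 for Sla2 (TNF log2 difference 0.94 ± 0.16, adjusted p = 0.000884; IL-6 1.06 ± 0.16, adjusted p = 0.000395). The ratio of Sla to Sla2 was 17.9 to 22.3 in Th0, 1.98 to 2.16 with IL-6, 1.88 to 2.52 with TNF and 3.08 to 5.25 in Tnfr2-/-. Sla2 shares 731 exonic bases with Rab5if on the opposite strand, whose reads cannot be told apart there. Rab5if stood at 298, 237 and 284 FPKM in Th0, 308, 199 and 208 with IL-6 and 168, 135 and 179.7 with TNF, so that IL-6 overlapped Th0 and TNF lay below both. Its part in the values of Sla2 was not tested.

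**Figure D4:**
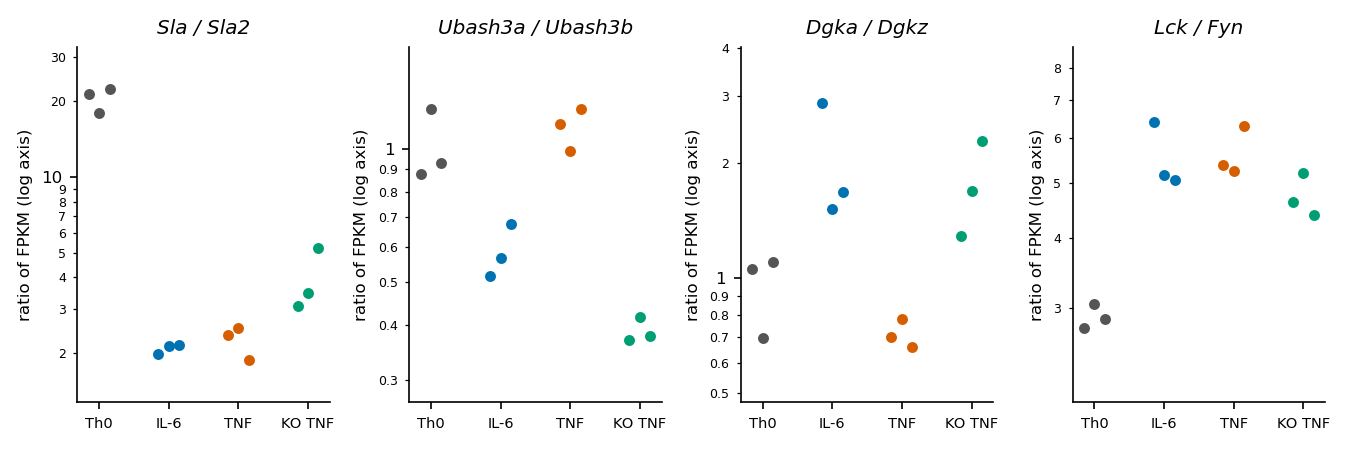
Ratio of the FPKM of 2 related members in each library (points, log axis) for Sla over Sla2, Ubash3a over Ubash3b, Dgka over Dgkz and Lck over Fyn. The Sla to Sla2 ratio is 17.9 to 22.3 in Th0 and at most 5.25 in all other libraries, and the Ubash3a to Ubash3b ratio is at least 0.989 with TNF in WT and at most 0.416 in Tnfr2-/-.

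Ubash3a and Ubash3b, a pair of phosphatase-like proteins that restrain Zap70, were both higher with TNF+TGF-β. Ubash3a was 25.7, 32.00 and 28.2 FPKM in Th0, 29.7, 38.9 and 39.1 with IL-6 and 81.9, 67.1 and 76.2 with TNF. The TNF libraries were above all other WT libraries (against Th0 1.36 ± 0.19, adjusted p = 0.000272; against IL-6 1.05 ± 0.19, adjusted p = 0.00300), and IL-6 was not called against Th0 (0.31 ± 0.19, adjusted p = 0.290). Ubash3b was 29.4, 25.99 and 30.3 FPKM in Th0, 57.5, 68.7 and 57.96 with IL-6 and 71.8, 67.9 and 62.1 with TNF. It rose with both (TNF 1.21 ± 0.18, adjusted p = 0.000394; IL-6 1.08 ± 0.18, adjusted p = 0.000998), and the cytokine pairs were not called different (0.13 ± 0.18, adjusted p = 0.702). The Ubash3a to Ubash3b ratio was 0.876 to 1.23 in Th0, 0.516 to 0.675 with IL-6 and 0.989 to 1.23 with TNF.

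Ptpn6 (SHP-1), a phosphatase of the proximal kinases, fell with both cytokine pairs. It was 407, 390.5 and 427 FPKM in Th0, 188, 199 and 231 with IL-6 and 249, 261 and 260.4 with TNF, with no overlap (TNF -0.67 ± 0.11, adjusted p = 0.000877; IL-6 -0.99 ± 0.11, adjusted p = 4.68e-05). Scaled to the CD3 and beta chain genes, the fall with TNF was no longer called. The B cell marker sum was higher in Th0 than with TNF without overlap and overlapped that with IL-6, and its part in the falls of Ptpn6 and Ptprc was not tested. Ptpn22, another phosphatase, rose with IL-6 (0.68 ± 0.19, adjusted p = 0.0217), a call lost without library 1 or 3 of Th0 or library 2 or 3 of IL-6+TGF-β (0.0611 to 0.0899). With TNF it overlapped Th0 (0.50 ± 0.19, adjusted p = 0.0641) and passed without library 2 of Th0 (0.0247) or library 3 of TNF+TGF-β (0.0296). Cbl, a ubiquitin ligase, rose with TNF (0.56 ± 0.16, adjusted p = 0.0213). That call was lost without library 2 or 3 of Th0 or library 1 or 2 of TNF+TGF-β (0.0634 to 0.0686). With IL-6 Cbl was not called (0.42 ± 0.16, adjusted p = 0.0880) and passed without library 1 of IL-6+TGF-β (0.60, adjusted p = 0.00663). Bcl10 likewise passed without that library (-0.47, adjusted p = 0.0329).

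Cblb, the ligase best known as a brake on T cell activation, overlapped between all groups compared (7.51, 21.9 and 9.73 FPKM in Th0) and was called nowhere. Dgka, a diacylglycerol kinase that opposes Rasgrp1, was also called nowhere, with group means of 122 to 145 FPKM. Dgkz, the second such kinase, was 126, 180.0 and 127 FPKM in Th0, 43.4, 100.2 and 93.8 with IL-6 and 169, 178 and 166 with TNF. TNF libraries were above all IL-6 libraries (1.19 ± 0.32, adjusted p = 0.0297), but the call was lost without library 1 of IL-6+TGF-β (0.81, adjusted p = 0.0935) or any TNF+TGF-β library (0.0705 to 0.0916). Against Th0 Dgkz was not called with IL-6 (-0.93 ± 0.32, adjusted p = 0.0575), and passed without library 2 of IL-6+TGF-β (-1.14, adjusted p = 0.0427).

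In Tnfr2-/- cells under TNF+TGF-β the members again split. Of the 12 that were lower than WT, 6 kept the call without each library: Thy1, Themis, Ubash3a, Cd6, Skap1 and Cd2. Of these, Cd6 (-0.85, adjusted p = 0.0568) and Cd2 (-0.49, adjusted p = 0.0595) lost it in the fit with the replicate block. Of the 8 that were higher, 4 did: Grap2, Cd28, Ptpn6 and Malt1. All 6 surface members were called, 4 lower and 2 higher, and none of the 5 receptor chains was. Of all tested genes, 37.4% were called (19.9% higher, 17.5% lower). In the fit with the replicate block 9 of the 20 member calls were kept, and all genes called numbered 3253, from 4898. Besides Cd6 and Cd2, the calls lost there were those of Cd5, Ptprc, Lat, Lcp2, Plcg1, Bcl10, Ptpn22, Sla2 and Dgkz. Sla, which differed most from Th0 in WT, was 41.05, 41.00 and 48.3 FPKM in Tnfr2-/- and was not called against WT (0.14 ± 0.10, adjusted p = 0.314). Rasgrp1 was also not called (52.4, 48.3 and 39.7 FPKM, -0.18 ± 0.20, adjusted p = 0.508).

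Ubash3a was 37.3, 31.6 and 21.1 FPKM in Tnfr2-/-, below all WT libraries of the treatment and 2.51-fold lower (log2 difference -1.33 ± 0.19, adjusted p = 0.000287). Its partner Ubash3b was 101, 75.9 and 55.7 FPKM and was not called (0.16 ± 0.18, adjusted p = 0.504). The ratio of the pair was 0.369 to 0.416, against 0.989 to 1.23 in WT. Cd6 was 196, 123 and 85.3 FPKM against 271, 319 and 247 in WT (log2 difference -1.12 ± 0.28, adjusted p = 0.00798). Skap1, the partner of Fyb, was 135, 116 and 84.2 FPKM against 187, 184 and 177 in WT (log2 difference -0.73 ± 0.16, adjusted p = 0.00399). For both genes every Tnfr2-/- library was below every WT library with TNF+TGF-β.

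Among the higher members, Grap2 was 14.02, 16.9 and 21.7 FPKM against 8.02, 7.29 and 9.92 in WT (log2 difference 0.97 ± 0.18, adjusted p = 0.00126). Ptpn6 was 405, 483 and 423 FPKM against 249, 261 and 260.4 (log2 difference 0.76 ± 0.11, adjusted p = 0.000295), and Malt1 was 9.44, 13.5 and 13.2 against 6.49, 7.21 and 6.51 (0.74 ± 0.18, adjusted p = 0.00746). None of these 3 overlapped. Cd2 was lower at -0.49 (adjusted p = 0.0114), and its adjusted p reached 0.0498 without WT library 3.

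The other 10 calls depended on single libraries. Lower calls were lost for Lat (without WT library 3 or Tnfr2-/- library 4, 0.05 to 0.0562), Cd5 (without WT library 1, 0.0542) and Sla2 (without WT library 3, 0.0549). Lcp2 was lost without any WT library or Tnfr2-/- library 2 or 4 (0.0616 to 0.157). Plcg1 and Dgkz were each lost without WT library 1 or 2 or Tnfr2-/- library 2 or 4 (0.0667 to 0.101 and 0.0502 to 0.084). Among the higher calls, Ptprc was lost without WT library 3 (0.0681), and Ptpn22 without WT library 1 or 3 or Tnfr2-/- library 1 (0.0726 to 0.133). Bcl10 was lost without WT library 1 or 3 or Tnfr2-/- library 2 or 4 (0.0572 to 0.0932). Txk was lost without any WT library or Tnfr2-/- library 1 or 2 (0.0703 to 0.118). Conversely, Cd3e (-1.14, adjusted p = 0.0187) and Lck (-0.50, adjusted p = 0.0286) were called lower without Tnfr2-/- library 1, and Cd247 higher (0.43, adjusted p = 0.039) without library 4.

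Tnfr2-/- libraries differed among themselves for most members. In 24 of the 39, library 1 was the highest and the library numbered 4 the lowest, a pattern chosen after the values were seen that 30.6% of all tested genes had. Lcp2, for example, was 125, 75.6 and 58.5 FPKM and Cd3e 453, 248 and 199. Grap2 and Bcl10 had the opposite order, as did 16.5% of all genes. The 10 B cell markers summed to 2206, 3875 and 4761 FPKM in libraries 1, 2 and 4, and all 10 were called higher than in WT. A sum of 8 myeloid markers was 1760.0, 1506 and 773 FPKM in these libraries, against 273.4 to 368.3 in WT, with 5 of 8 called higher. Most of the myeloid sum came from Lyz2 (1310, 928 and 178 FPKM) and Cst3 (331, 505 and 571). Cst3 rose from library 1 over 2 to 4, and the other markers of that list fell. Cd8a and Cd8b1 together stood at 71.6, 78.9 and 29.5 FPKM, against 307.4 to 357.9 in WT. Of 4 NK markers, 2 passed the filter on low values, and the sum of all 4, nearly all from Nkg7, was 225.6, 191.9 and 65.5 FPKM against 883.9 to 1026 in WT with TNF+TGF-β. Nkg7, a cytotoxic granule gene, was called lower at -2.75 ± 0.36, adjusted p = 0.000140, while Ncr1 was listed at 0 in 2 of the Tnfr2-/- libraries and in all 3 of IL-6+TGF-β. The part of these markers in the differences between genotypes was not tested. Scaled to the geometric mean of Cd3d, Cd3g, Cd247, Trbc1 and Trbc2, 6 members were higher and 10 lower in Tnfr2-/-. Of all 13082 tested genes, 2225 were then higher and 1686 lower, from 2608 and 2290 in the main fit. Cd3d, Cd3g and Cd247 are members too, so the scaling itself bounds their differences, and Cd247 was among those called higher.

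**Figure D5:**
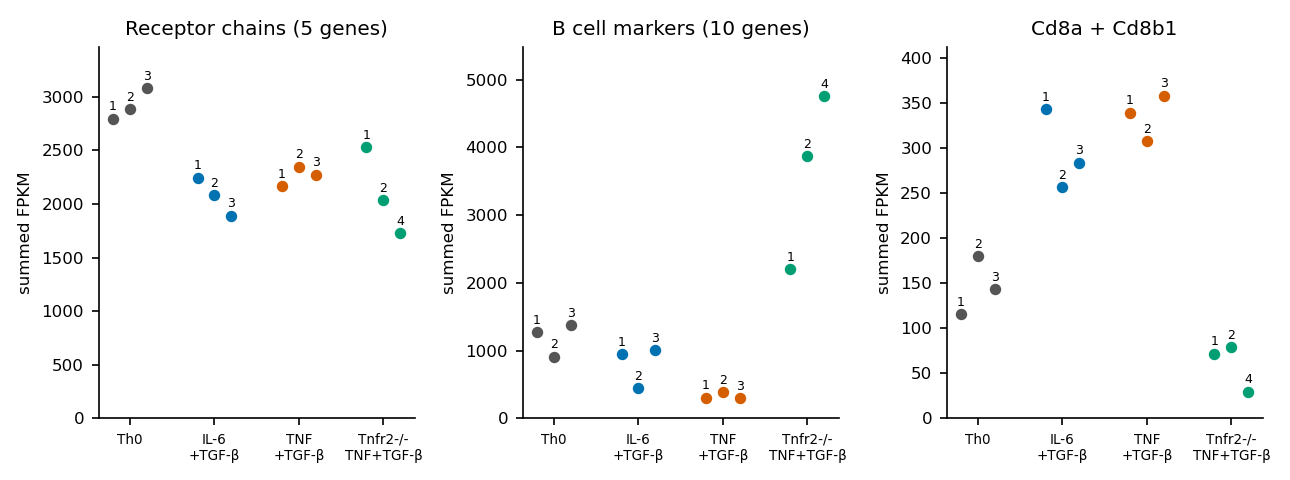
Summed FPKM in each library (points, numbered as in the labels or columns) of the 5 receptor chains, 10 B cell markers and the CD8 chains Cd8a and Cd8b1. The B cell sum is 2206 to 4761 in Tnfr2-/- and at most 1380.0 in WT, and the CD8 sum is lowest in Tnfr2-/-.

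The 75 other genes of the pathway, coreceptors, further adaptors, calcium and Ras components, PI3K and further inhibitors, were called in 32% of cases with TNF against Th0 (18 higher, 6 lower), where 31.7% of all tested genes were. With IL-6 against Th0, 19 were higher and 10 lower (38.7%, against 23.2% of all genes), between the cytokine pairs 10 and 4 (18.7% against 12.8%), and in Tnfr2-/- 15 and 12 (36% against 37.4%). With single libraries left out, the lower count with TNF was 3 without library 1 or 3 of Th0. The higher count with IL-6 was 12 and 10 without these libraries, and the lower count was 6 without library 2 of Th0. Between the cytokine pairs the higher count was 5 without TNF library 2, and the lower count was 1 without TNF library 1 or 2 and 2 without TNF library 3 or IL-6 library 3. Their median differences were 0.14, 0.11, 0.15 and -0.04. The largest rises with TNF against Th0 were in Cish (2.26), a SOCS family inhibitor, Trat1 (2.24), a receptor-associated adaptor, and Sit1 (2.08), an inhibitory transmembrane adaptor. The largest falls were in Vav3 (-1.23), a relative of Vav1, Tespa1 (-1.13) and Lax1 (-0.73), an adaptor that restrains signalling, whose call was lost without library 1 or 3 of Th0 (adjusted p 0.0501 and 0.0524). With IL-6 they were Itpr3 (1.76), a calcium channel of the endoplasmic reticulum, Sit1 (1.70) and Cish (1.59) upward, and Vav3 (-2.83), Tespa1 (-2.16) and Rnf128 (-1.33), a ubiquitin ligase, downward.

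Trat1 separated the cytokine pairs most, at 15.2, 22.04 and 14.8 FPKM with TNF+TGF-β against 1.48, 0.740 and 1.78 with IL-6 (log2 difference 2.98 ± 0.25, adjusted p = 7.50e-06). Cd4 (2.18) and Vav3 (1.60) were the next highest with TNF, and Skap2 (-1.67), Lax1 (-0.72) and Nras (-0.64) the lowest. Of these, Cd4 was lost without IL-6 library 1 (1.52) or TNF library 2 or 3 (adjusted p 0.0517 to 0.0873), and Nras without IL-6 library 1 or any TNF library (0.0619 to 0.151). Lax1 was lost without IL-6 library 2 or 3 or any TNF library (0.0534 to 0.0733). In Tnfr2-/- the largest rises were in Pag1 (2.38), a scaffold for Csk, the kinase that inhibits Lck, Lax1 (1.95) and Itpr2 (1.95). The largest falls there were in Cd8a (-3.10), Cish (-2.24) and Cd8b1 (-2.14). Lax1 stood at 103, 119.6 and 109 FPKM in Tnfr2-/- and 28.1, 26.8 and 28.6 in WT, with no overlap. Pag1, Lax1 and Itpr2 were higher in the same libraries whose B cell markers were higher, and that part was not tested.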

How the data were processed

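RNA of 12 samples was converted to cDNA with a SMARTer v4 kit and made into Nextera XT libraries, per the labels' protocols, a method that does not mark strand. The deposited values are FPKM per gene, 1 column per library, as gene-level RSEM results per the file headers. Trimmomatic, STAR 2.5.4, RSEM 1.3.1 and mm10 are named in the submitters' processing notes, and the annotation is not given in the sources used here. That the values are FPKM was checked from their sums and steps, and the steps gave the depth only approximately. The Tnfr2-/- columns are numbered 1, 2 and 4 where the labels number 1 to 3.

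Genes at 1 FPKM or more in at least 3 libraries (13082 of 47643) were tested as log2(FPKM + 1) with limma 3.58.1 in R 4.3.3, with a trend, 1 mean per group over all 12 libraries and no covariate. P-values are two-sided and Benjamini-Hochberg adjusted per comparison. The fit was tested on simulated data. All members are named. Of the other pathway genes, the 3 called with the largest rise and the 3 with the largest fall were named per comparison. The members and lists were chosen with earlier results of these data known. Alternatives were a pseudocount of 0.1, no filter, 3 other scalings, only the 2 groups compared, a replicate block and each library left out. Scaling to Cd3d, Cd3g, Cd247, Trbc1 and Trbc2 was added after seeing the data. Counts of members under that scaling include Cd3d, Cd3g and Cd247.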

Additional observations from a re-analysis of the deposited data

How the results depend on the processing

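Over 14 alternatives, 1996 of 2184 member values kept their side of the threshold, 144 lost a call, 44 gained one and no called value changed direction. Members lower with TNF+TGF-β against Th0 numbered 7, but 4 on TPM, 2 when scaled to the CD3 and beta chain genes (chosen after seeing the data), and 4 to 5 with a library left out. Of all 13082 genes, 1703 were lower, but 1243 on TPM, 765 under the added scaling and 1101 to 1491 with a library left out. Members higher there numbered 10, and 16 under that added scaling, while all genes called higher numbered 2442 and 3271. The added scaling also left 2 of 6 members lower with IL-6+TGF-β, and all genes called lower there went from 1197 to 562. Members higher with TNF than IL-6 numbered 5, but 3 with no filter, 3 under the added scaling and 3 to 4 with a library left out. All genes higher there numbered 956, and 1031 with no filter, where more genes are tested. They numbered 722 under the added scaling and 654 to 859 with a library left out. Members higher in Tnfr2-/- numbered 8, but 4 on TPM and 4 to 8 with a library left out. All genes higher there numbered 2608, but 2103 on TPM and 1937 to 2602 with a library left out. Under the scalings the median of all genes shifted from 0.07 to 0.22 (TPM) and 0.31 (added scaling) with TNF, from 0.04 to 0.3 (added scaling) with IL-6, and from 0 to -0.11 (TPM) in Tnfr2-/-. Causes were not tested.

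Same-numbered libraries of different groups correlated between -0.284 and 0.344 in their deviations. The highest were of Th0 with IL-6+TGF-β, at 0.29 and 0.344 for numbers 1 and 2. The lowest was of IL-6+TGF-β with Tnfr2-/-, at -0.284 for number 1. Without the same values for differently numbered libraries, these cannot tell whether the numbers mark pairs. The main fit did not take them as pairs. With a replicate block, members higher in Tnfr2-/- numbered 5, members lower 4 (Skap1, Themis, Thy1 and Ubash3a; 12 without it) and all genes called 3253 (4898 without it). In that fit the Tnfr2-/- library numbered 4 has no partner and drops out. The block moved no count of calls in the WT comparisons by over 1.5 times. Where a removal left 2 libraries in a group, the spread came from all groups. No member was near the depth limit, as the lowest group mean was 3.31 FPKM.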
